A study of Mus musculus with 18 samples.

Results

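The 957 inserts described here are members of a library of DNA sequences placed in the genome of mouse embryonic stem cells, and they yielded RNA that was rarely spliced. They were selected on their reads in the siNT cultures, which received a non-targeting siRNA. Each has exactly 1 spliced form listed in the RNA count table, and under 20% of its RNA reads over the 3 siNT cultures were spliced. The rule also asked for an insert number outside 12001 to 12500, a mean of at least 20 reads over the 9 genomic DNA (gDNA) libraries and at least 60 RNA reads over the siNT cultures. Of 16461 inserts in the tables, 1880 outside that number range had 1 spliced form. A minimum was missed by 177 of these, 136 on gDNA and 41 on RNA. The 957 rarely spliced inserts were 56.2% of the remaining 1703, and the other 746 had a spliced share of 20% or more. The question was whether the rarely spliced inserts respond to loss of the Restrictor complex like inserts with no spliced form at the same siNT level.

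INSERT-seq compares many DNA sequences placed at the same genomic site by the RNA that each one yields. The site lies in the antisense transcript that starts upstream of Oct4 (Pou5f1, mm10 chromosome 17, 35506032 to 35510777), ahead of the fluorescent reporter mKate2. The cells were a female CAST/129 hybrid stem cell line, and every culture, controls included, carried TagBFP2 at Oct4C, the INSERT-seqlibrary at Oct4ua157 and mKate2 at Oct4ua172, each on the 129 allele. Cultures were treated with siNT, siWDR82 or siZC3H4, in 3 biological replicates each, and each gave 1 RNA and 1 gDNA library. The dose was 30 nM, although siWDR82 replicates 2 and 3 are labelled 31 and 32 nM against the single value in the protocol. Depletion of WDR82 and ZC3H4 and the markers of the stem cell state lie outside the amplified locus and were not analysed here.

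WDR82 and ZC3H4 form the core of Restrictor, a complex that attenuates early elongation by RNA polymerase II, above all on noncoding transcription units such as upstream antisense RNAs. Splicing starts with recognition of a 5' splice site by the U1 small nuclear RNP, and introns and U1 recognition are known to favour productive elongation. An insert with a usable pair of splice sites can therefore give a spliced and an unspliced RNA from the same place.

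The count tables name an insert by its number and do not pair that number with a sequence or a source gene, and the name of a spliced form carries no position. Inserts are therefore named here by number alone.

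RNA libraries held 32173068 to 52840375 insert reads and gDNA libraries 4584881 to 11510602. A rarely spliced insert had a median of 1258 to 2143 RNA reads and 243 to 633 gDNA reads per library. The median gDNA depth was 592 to 633 reads in siNT, 243 to 422 after siWDR82 and 246 to 581 after siZC3H4. The ratio of insert to spike-in reads was 26.0 to 39.7 in siNT, 46.3 to 97.7 after siWDR82 and 25.4 to 79.5 after siZC3H4, so changes are given relative to other inserts unless stated. Reads come from PCR without molecular identifiers, and counting limits below cover counting error only.

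Rare splicing had several forms within the group. Of the 957 inserts, 460 had 0 spliced reads in siNT, 277 had some but under 5%, and 220 had 5% to 20%. Over all 9 RNA libraries, 306 never gave a spliced read, among 8608150 RNA reads, which allows a share of up to 3.49e-05%. Another 154 gave none in siNT and some in a knockdown culture. A spliced read was seen in every library for 169 inserts, in 2 to 8 libraries for 409 and in a single library for 73. The spliced reads that there were lay unevenly over the libraries. Among the 605 inserts with at least 10 spliced reads, the richest of the 9 libraries held a median of 34.8% of them, and for 56 inserts it held 90% or more.

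The share limit cut through a continuous range of shares. Just inside it, sequence_13545 had 2719 spliced of 13703 siNT RNA reads (19.8%) and sequence_13667 had 43 of 219 (19.6%). Just outside it, sequence_12874 had 511 of 2549 (20.05%) and sequence_13989 had 108 of 535 (20.2%). In sequence_13667 all 43 spliced siNT reads came from replicate 3, where the insert had no unspliced read, while replicate 2 had 176 unspliced and 0 spliced reads and replicate 1 had none of either. Its share in siNT is thus a mixture of cultures and not a value that any culture showed.

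Rarely spliced inserts were found across the library and were more frequent at both ends of the numbering, whose meaning the tables do not give. They were 7.54% of inserts meeting the minimums among numbers up to 4000 (288 inserts), 6.58% among those above 4000 up to 5500 (91), 4.91% up to 9000 (150), 4.55% up to 12000 (113) and 8.88% above 12500 (315). The often spliced inserts were more unevenly placed, with 68.5% of those at a share of 20% or more numbered above 12500 against 32.9% of the rarely spliced ones.

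Their median RNA level in siNT lay between that of inserts with no spliced form and that of inserts spliced in 50% or more of reads. The level of an insert is log2 of its RNA over its gDNA, with unspliced and spliced RNA reads added, both as CPM, the share of library reads, with 0.5 added. RNA reads sum over all cells that carry an insert, so fewer cells making RNA and less RNA per cell cannot be told apart. The median level of the rarely spliced inserts was -0.60, -0.42 and -0.49 in the 3 siNT cultures. It was -0.94, -0.85 and -0.88 for the 12470 inserts with no form listed that met the same minimums, and 0.65, 1.02 and 1.31 for the 556 inserts with a spliced share of 50% or more. The 190 inserts with a share of 20% to 50% did not follow this order, at -0.73, -0.73 and -0.43. Levels within the group were wide, with the middle 50% of inserts spanning 2.20 ± 0.13 log2 units (SD, n = 3). The median SD of a rarely spliced insert between siNT cultures was 0.64, against 0.48 between siWDR82 and 0.49 between siZC3H4 cultures.

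With either Restrictor siRNA the median level of the rarely spliced inserts was raised less than that of inserts with no spliced form. Their median level was -0.45, -0.40 and -0.37 after siWDR82 and -0.39, -0.31 and -0.22 after siZC3H4. Relative to the siNT mean this was higher by 0.094 after siWDR82, where the cultures overlapped, and by 0.19 after siZC3H4, where they did not. Inserts with no form listed stood at -0.46, -0.46 and -0.42 after siWDR82 and -0.51, -0.41 and -0.49 after siZC3H4. Their median was higher than in siNT by 0.44 and 0.42, with no overlap for either siRNA. The groups of inserts thus stood closer to each other in every knockdown culture than in any siNT culture. Levels also became more alike among the rarely spliced inserts, as the middle 50% spanned 1.69 ± 0.12 after siWDR82 and 1.77 ± 0.029 after siZC3H4 (n = 3 each), without overlap with siNT. Inserts with no form narrowed as well, from 2.43 ± 0.22 in siNT to 1.70 ± 0.076 and 1.91 ± 0.071 (n = 3 each), also without overlap.

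Inserts with little RNA in siNT were raised most in the knockdowns, so inserts were next compared in bins of siNT level. Rarely spliced inserts and inserts with no form were ranked together in 20 bins by their level in 1 siNT culture. In each other culture, a rarely spliced insert was set against the median of the no-form inserts of its bin, and the median over the 957 was taken. The bins came from each siNT culture in turn, and no culture was compared in bins made from itself. This level-matched difference was 0.0042, 0.15 and 0.15 in siNT, so by this median rarely spliced inserts stood at or above their partners there. It was -0.15, -0.16 and -0.14 after siWDR82 and -0.11, -0.11 and -0.051 after siZC3H4, so in all 6 knockdown cultures they stood below them. Bins from 1 siNT culture thus did not make the groups level in every other siNT culture. The shifts from siNT given below include any loss of that siNT offset, and its part was not tested.

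The level-matched difference was lower than in siNT by 0.25 log2 units after siWDR82 (-0.15 ± 0.010 against 0.10 ± 0.086, SD, n = 3) and by 0.19 after siZC3H4 (-0.090 ± 0.034, n = 3). Neither siRNA overlapped siNT. A scale factor common to a library enters both groups of inserts and cancels. The narrower spread of levels in the knockdowns does not cancel in this way, and its part was not tested. The share of rarely spliced inserts below the median of their partners was 49.7%, 44.9% and 43.0% in siNT, 57.4%, 56.8% and 56.1% after siWDR82, and 55.0%, 55.1% and 53.0% after siZC3H4. The shift was thus a tilt of a broad distribution, and many rarely spliced inserts stood above their partners in every knockdown culture. No p-value is given for a score over inserts chosen on siNT reads.

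The difference was seen in RNA. Measured in the same bins on RNA alone, the difference was 0.066, 0.14 and 0.12 in siNT, -0.20, -0.18 and -0.18 after siWDR82, and -0.15, -0.089 and -0.055 after siZC3H4. On gDNA alone the shift was -0.0076 after siWDR82 and -0.0062 after siZC3H4, and cultures overlapped. Unspliced RNA showed the shift too. With unspliced reads alone, used for level and for matching, the difference was -0.0040, 0.15 and 0.14 in siNT, -0.19, -0.18 and -0.17 after siWDR82 and -0.13, -0.13 and -0.081 after siZC3H4. The corresponding shifts were -0.27 and -0.21, at least as large as with all reads.

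The size of the shift differed between classes of spliced share in siNT. For the 306 rarely spliced inserts with no spliced read in any library it was -0.11 after siWDR82 and -0.077 after siZC3H4. This class, like the 154 below, was defined with knockdown reads too, since RNA from those libraries had to be free of spliced reads, so its size is not set against the others. For all 460 with no spliced siNT read it was -0.15 and -0.10. The 154 of them that gave a spliced read in a knockdown stood at -0.28 and -0.18, where siZC3H4 overlapped siNT. For the 277 inserts with a share under 5% it was -0.35 and -0.28, and for the 220 with 5% to 20% it was -0.33 and -0.26, so these classes were alike in size. For the 190 often spliced inserts with a share of 20% to 50% it was -0.46 and -0.41. For the 556 with 50% or more it was -0.67 and -0.75, from 0.20, 0.54 and 1.16 in siNT. All these values are knockdown mean minus siNT mean with no-form inserts as partners, and apart from the 154 their cultures did not overlap siNT. The differences between classes were not tested. Spliced siNT reads set every class and also count in the siNT level, so no order by spliced share is read from these values.

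The level-matched difference of the inserts that never gave a spliced read was 0.10, 0.071 and 0.12 in siNT, -0.0036, -0.019 and -0.0071 after siWDR82, and 0.061, -0.0030 and 0.0059 after siZC3H4. In the knockdown cultures these inserts were thus nearly level with inserts that have no form listed, and they stood above them in siNT. The inserts with a share under 5% stood above their partners in siNT and below them in the knockdowns, with 0.098, 0.21 and 0.17 in siNT, -0.19, -0.21 and -0.17 after siWDR82 and -0.14, -0.15 and -0.063 after siZC3H4. Those with 5% to 20% varied more between siNT cultures, at -0.10, 0.10 and 0.24, and stood at -0.22, -0.31 and -0.23 after siWDR82 and -0.28, -0.15 and -0.11 after siZC3H4.

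The shift was present over the range of siNT levels. In 5 classes of about equal size, from the lowest siNT level to the highest, it was -0.37, -0.31, -0.20, -0.27 and -0.15 after siWDR82, and siWDR82 did not overlap siNT in any class. With siZC3H4 it was -0.29, -0.21, -0.079, -0.25 and -0.14, and cultures overlapped in the middle class. In the lowest class, the median level of rarely spliced inserts was -2.06 ± 0.16 in siNT, -1.52 ± 0.080 after siWDR82 and -1.59 ± 0.021 after siZC3H4 (n = 3 each). No-form inserts of that range of siNT level, not matched further in bins, were set beside them. Those no-form inserts stood at -2.36 ± 0.14, -1.44 ± 0.091 and -1.61 ± 0.026 (n = 3 each), and so began lower in siNT. Inserts of both groups in the lowest class thus had more RNA, relative to other inserts, in the knockdowns. As the groups did not start level, their increases are not compared here. The bin-matched shift of the rarely spliced inserts in this class was the -0.37 and -0.29 given above. There too the groups did not start level, as the level-matched difference was 0.12, 0.36 and 0.29 in siNT. It was -0.11, -0.12 and -0.12 after siWDR82, and -0.0070, 0.020 and -0.10 after siZC3H4. In the highest class, rarely spliced inserts went from 1.06 ± 0.11 to 0.60 ± 0.060 and 0.78 ± 0.011 (n = 3 each). No-form inserts of that range, again not matched further, went from 0.98 ± 0.099 to 0.71 ± 0.050 and 0.87 ± 0.054 (n = 3 each).

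Partners drawn from the same number range gave shifts of the same sign in every range. With siWDR82 they were -0.20, -0.22, -0.25, -0.12 and -0.37 in numbers up to 4000, up to 5500, up to 9000, up to 12000 and above 12500. With siZC3H4 they were -0.15, -0.20, -0.15, -0.11 and -0.29. The last range stood clearest, at 0.19, 0.17 and 0.16 in siNT, -0.16, -0.23 and -0.21 after siWDR82 and -0.11, -0.12 and -0.12 after siZC3H4. In the ranges between 4000 and 12000 the cultures of each siRNA overlapped siNT, as they did after siZC3H4 in numbers up to 4000. Between 9000 and 12000 the rarely spliced inserts stood above their partners in every culture, at 0.39, 0.23 and 0.15 in siNT, 0.11, 0.20 and 0.096 after siWDR82 and 0.14, 0.091 and 0.21 after siZC3H4.

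Between the siRNAs, the level-matched difference was higher after siZC3H4 than after siWDR82 by 0.061, and the 3 cultures of each did not overlap. The median edgeR log2 change of siZC3H4 against siWDR82 was 0.089 for the rarely spliced inserts and 0.0069 for all 15364 inserts tested, and 43.9% of the former were below 0 against 49.6% of all. With spike-in scaling the medians were -0.22 and -0.31, so the sign depends on the scale and the order of the groups did not. The levels compared next use no siNT read, whereas the edgeR fit takes its dispersion and scaling from all 18 libraries. Among rarely spliced inserts, all siZC3H4 cultures lay above all siWDR82 cultures in 87 (9.09%) and below them in 46 (4.81%). Over all inserts tested those shares were 7.04% and 7.5%, and the gap from this background was not tested. The edgeR quasi-likelihood test of RNA over gDNA called 0 of the 957, as it did 0 of all inserts (0% called), with 14 rarely spliced inserts (1.46%) at an unadjusted p under 0.05, 10 higher and 4 lower after siZC3H4, against 1.90% of all inserts. DESeq2 called 1 of the 957, sequence_01820, and 0.221% of all inserts.

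sequence_01820 was the rarely spliced insert that the rule named as higher after siZC3H4. Its RNA reads were 0, 180 and 675 in siNT, 0, 0 and 0 after siWDR82, and 282, 59 and 132 after siZC3H4. Its gDNA reads were 17, 171 and 251, then 76, 63 and 44, then 46, 68 and 13. It thus had no RNA read in any siWDR82 culture while present in their genomic DNA, and none in 1 siNT culture either. Pooled over cultures and scaled to the library totals of RNA and of gDNA, its RNA per gDNA read was at least 318-fold higher after siZC3H4 than after siWDR82, where a floor of 3 reads over the group stands in for 0. It gave 0 spliced among 1328 RNA reads, which allows a share of up to 0.226%. edgeR gave an adjusted p of 1.00 (0.00237 to 1.00 over 16 alternatives, the lowest with DESeq2). In the other direction, sequence_05354 had levels of 0.97, 0.71 and 0.73 after siWDR82 and -0.12, -0.013 and 0.063 after siZC3H4. The groups did not overlap, and siNT overlapped siZC3H4 at 0.36, 0.57 and -0.053. Its log2 change was -0.83 (SE 0.36, edgeR adjusted p = 1.00).

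For single inserts against siNT, counts are given as a description, because siNT reads chose the inserts. With siWDR82, 2 rarely spliced inserts rose and 1 fell (edgeR, adjusted p under 0.05 over all inserts tested), or 0.209% and 0.104%. Over all inserts, 0.586% rose and 0.111% fell. With siZC3H4, 0 of the 957 rose and 0 fell, against 0.325% and 0.026% of all inserts, and edgeR gave an unadjusted p under 0.05 to 68 of the 957 (7.11%), 27 higher and 41 lower, against 9.39% of all inserts. For siWDR82 that count was 122, 32 higher and 90 lower, or 12.75% both of the 957 and of all inserts. DESeq2 called 8 higher and 15 lower after siWDR82 (1.93% and 1.18% of all inserts), and after siZC3H4 1 higher and 0 lower (1.34% and 0.436%).

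RNA and gDNA of 1 culture deviated together, so the fit was repeated with the culture as a block. It called 13 of the 957 higher and 28 lower in the siWDR82 comparison, among them the 3 of the fit without the block, where 1.44% and 1.68% of all inserts were called. In the siZC3H4 comparison it called 2 higher and 0 lower, beside 0.325% and 0.0716% of all inserts. The split of directions also depended on the scale. Library totals in place of TMM gave 5 higher and 0 lower after siWDR82 (0.885% and 0.026% of all), and spike-in scaling 25 higher and 1 lower (4.2% and 0.0195%).

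The median fitted log2 change of the 957 was -0.23 after siWDR82 and -0.12 after siZC3H4, against 0.062 and 0.061 over all inserts and 0.11 and 0.096 over no-form inserts. On library totals the values for the 957 were 0.048 and 0.13, against 0.34 and 0.32 for all, and on spike-in scaling 1.04 and 0.87, against 1.34 and 1.03. The rarely spliced inserts were thus below the others on each scale, while the sign of their own change was set by the scale. These changes are not matched for siNT level, which differed between the groups, and siNT reads chose the inserts. The part of siNT level in the gap was not tested.

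Counts of inserts whose cultures do not overlap are likewise a description, since siNT reads chose the inserts. All siWDR82 levels lay above all siNT levels in 127 of the 957 (13.3%) and below them in 108 (11.3%), where the shares over all inserts tested were 20.1% and 6.87%. With siZC3H4, 127 (13.3%) lay above and 69 (7.21%) below, against 18.1% and 5.18%. Among the 460 with no spliced siNT read, 65 (14.1%) lay above and 39 (8.48%) below after siWDR82. After siZC3H4 these were 72 (15.7%) and 24 (5.22%). Among the 277 with a share under 5%, 36 (13.0%) lay above and 46 (16.6%) below after siWDR82. After siZC3H4 28 (10.1%) lay above and 28 (10.1%) below. Among the 220 with 5% to 20%, 26 (11.8%) lay above and 23 (10.5%) below after siWDR82. After siZC3H4 these were 27 (12.3%) and 17 (7.73%). The shares below siNT did not run in the order of the classes.

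The inserts that the edgeR fit without the block called higher after siWDR82 were sequence_02474 and sequence_14974. Both had no spliced read in any library despite the form listed for them. sequence_02474 had levels of -1.84, -1.28 and -1.36 in siNT, 0.63, 0.51 and 0.50 after siWDR82, and 0.13, 0.43 and 0.68 after siZC3H4. Every knockdown culture lay above every siNT culture. Its RNA reads were 2069, 2683 and 3724 in siNT against 7658, 9130 and 6844 after siWDR82, so the change did not rest on few reads. The log2 change was 1.74 (SE 0.39, edgeR adjusted p = 0.0420) after siWDR82 and 1.62 (SE 0.39, adjusted p = 0.0901) after siZC3H4. The siWDR82 call held in 7 of 16 alternatives (adjusted p 0.00262 to 0.192) and was lost without any one siWDR82 or siZC3H4 replicate, without siNT replicate 1 or 2, and with the replicate number as a block. With the culture as a block the adjusted p was 0.0119 for siWDR82 and 0.0265 for siZC3H4 in edgeR. With 0 spliced of 56985 RNA reads, its spliced share was at most 0.00526%.

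sequence_14974 had levels of -2.07, -2.02 and -3.08 in siNT, 0.035, 0.038 and -0.38 after siWDR82, and -0.0063, -1.02 and -0.50 after siZC3H4. Again no knockdown culture reached down to siNT, and siZC3H4 was more spread than siWDR82 and overlapped it. The log2 change was 2.00 (SE 0.45, edgeR adjusted p = 0.0420) after siWDR82 and 1.60 (SE 0.45, adjusted p = 0.178) after siZC3H4. The siWDR82 call held in 8 of 16 alternatives (adjusted p 0.00262 to 0.192), and was lost without any one siWDR82 or siZC3H4 replicate, without siNT replicate 3, and with the replicate number as a block. It had 0 spliced of 21634 RNA reads, a share of at most 0.0139%.

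The insert that the edgeR fit without the block called lower after siWDR82 was sequence_03601, of which 4.33% of siNT RNA reads were spliced. Its levels were 1.25, 1.25 and 0.56 in siNT, -0.58, -0.45 and -0.56 after siWDR82, and 0.036, -0.054 and 0.31 after siZC3H4. siWDR82 and siZC3H4 both lay wholly below siNT, after siZC3H4 in between. The log2 change was -1.85 (SE 0.43, edgeR adjusted p = 0.0473) after siWDR82 and -1.19 (SE 0.42, adjusted p = 0.348) after siZC3H4. The call held in 5 of 16 alternatives (adjusted p 0.00172 to 0.648), and was lost without any one siWDR82 or siZC3H4 replicate, without siNT replicate 1 or 2, with library totals, with the replicate number as a block, and with spike-in scaling, where the change was -0.47. Its spliced reads were uneven, at 422, 4 and 90 in siNT, 50, 0 and 35 after siWDR82 and 347, 88 and 93 after siZC3H4. The next by p was sequence_04402, spliced in 13.1% of siNT reads, with levels of -0.060, 0.30 and -0.048 in siNT, -2.06, -1.07 and -1.36 after siWDR82 and -0.38, 0.018 and -0.46 after siZC3H4. The siWDR82 cultures lay apart from all others, and siZC3H4 overlapped siNT. Its log2 change after siWDR82 was -1.88 (SE 0.46, edgeR adjusted p = 0.0651, and 0.0152 with the culture as a block; 0.00719 to 0.475 over 16 alternatives).

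Lower levels after siZC3H4 were most marked, by edgeR p, in sequence_03173 and sequence_04412, neither of which passed the threshold for siZC3H4. sequence_03173 had levels of 2.09, 2.19 and 2.11 in siNT, 0.19, 1.45 and 1.34 after siWDR82, and 0.74, 0.90 and 1.54 after siZC3H4. siNT was tight and stood above every knockdown culture. The log2 change was -1.35 (SE 0.40, edgeR adjusted p = 0.223) after siZC3H4 and -1.52 (SE 0.41, adjusted p = 0.0936) after siWDR82, where the culture as a block gave an adjusted p of 0.0496 and DESeq2 0.0150. sequence_04412 went from 2.04, 1.69 and 2.07 in siNT to 0.36, 0.29 and 0.50 after siWDR82 and 0.64, 0.38 and 0.92 after siZC3H4. Its log2 change was -1.55 (SE 0.52, edgeR adjusted p = 0.302) after siZC3H4 and -1.85 (SE 0.52, adjusted p = 0.116) after siWDR82, where the block gave 0.0350 and DESeq2 0.00903. Both inserts were thus called lower after siWDR82 in those fits. Neither insert gave a spliced read, among 81924 and 27448 RNA reads, so these were inserts whose listed form was not detected.

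The 28 rarely spliced inserts that the blocked fit called lower after siWDR82 were mostly of low number, with 14 of 288 (4.86%) up to 4000, where 140 of all 3852 inserts tested (3.63%) were called lower. Of the 91 above 4000 up to 5500, 10 were called lower (11.0%), against 47 of all 1419 (3.31%). Above 12500 it called 2 of 315 lower (0.635%), against 34 of all 3707 (0.917%). This grouping was chosen after the values were seen. By spliced share, it called lower 9 of the 460 with no spliced siNT read, 12 of the 277 under 5% and 7 of the 220 at 5% to 20%. Over all inserts it called 1.68% lower.

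Splicing of the group as a whole stayed low in all conditions. Of all RNA reads of the 957, 2.99%, 2.79% and 2.85% were spliced in siNT, 3.11%, 2.65% and 2.82% after siWDR82, and 3.08%, 3.36% and 3.17% after siZC3H4. The siNT values were capped by the choice of inserts, so they do not serve as a baseline. When inserts were chosen again by a share under 20% in 1 siNT culture and read in the others, the values were 3.51%, 3.10% and 3.26% in siNT, 3.15%, 2.69% and 2.97% after siWDR82, and 3.23%, 3.48% and 3.28% after siZC3H4. On that basis each siRNA overlapped siNT, with a difference of -0.35 percentage points for siWDR82 and 0.043 for siZC3H4, and siZC3H4 lay above siWDR82 by 0.39 without overlap. One-form inserts with a share of 20% or more, chosen again in the same way, had 79.4%, 75.5% and 78.3% in siNT, 69.5%, 70.7% and 72.6% after siWDR82 and 71.4%, 75.1% and 74.99% after siZC3H4, lower than siNT in each knockdown culture. Whether the 2 classes differ in this was not tested.

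The 20 inserts with the most spliced reads held 34.1% of the 756647 spliced reads of the group. Without them the spliced percent was 2.05, 1.95 and 1.98 in siNT, 2.21, 1.72 and 2.12 after siWDR82, and 2.30, 2.33 and 2.44 after siZC3H4. Within the class at 5% to 20% in siNT it was 12.3, 11.2 and 10.9 in siNT, 10.8, 9.66 and 10.1 after siWDR82, and 10.8, 12.0 and 10.8 after siZC3H4. In this class siWDR82 lay below siNT and siZC3H4 overlapped it. The class with some spliced reads but under 5% went the other way, at 1.58, 1.25 and 1.59 in siNT, 2.79, 2.03 and 2.31 after siWDR82, and 2.57, 2.29 and 2.51 after siZC3H4, with both siRNAs above siNT. These values describe only, since siNT splicing chose the classes.

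A spliced read was found in more of the inserts after knockdown. It was seen in 336, 350 and 374 of the 957 in siNT, 434, 434 and 442 after siWDR82, and 460, 446 and 427 after siZC3H4. The rule favours few in siNT, so one-form inserts with no spliced read in 1 siNT culture were followed into the other cultures. A spliced read then appeared in 15.7%, 17.2% and 20.5% of them in siNT, 24.3%, 24.2% and 24.9% after siWDR82, and 28.2%, 23.7% and 22.6% after siZC3H4. All 6 knockdown cultures lay above all 3 siNT cultures. The median RNA depth of a rarely spliced insert was 1430, 1418 and 1533 reads in siNT, 1529, 1432 and 1504 after siWDR82 and 1548, 1258 and 2143 after siZC3H4, so 2 of the 6 knockdown cultures were deeper than every siNT culture. The part of depth in this result was not tested.

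The ratio of spliced to unspliced reads was fitted for the 548 rarely spliced inserts with a mean of at least 5 reads of each kind, among 1671 one-form inserts. edgeR called 2 of the 548 after siWDR82 and 3 after siZC3H4, all higher, where 0.12% and 0.18% of the 1671 were called. Nothing is read from these counts, since a low siNT ratio was the rule. Between the siRNAs it called 0 (0% of the 1671), with 16 of the 548 (2.92%) at an unadjusted p under 0.05, 11 higher and 5 lower after siZC3H4, against 2.69% of the 1671. Without the library as a block, edgeR called 3 of the 548 between the siRNAs, which were all of its calls (0.18% of the 1671).

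The inserts called were sequence_01816 and sequence_04833 with both siRNAs and sequence_16205 after siZC3H4, named after their values were seen. sequence_01816 had 1, 0 and 0 spliced reads in siNT, 62, 52 and 53 after siWDR82 and 39, 71 and 107 after siZC3H4, among 37292 RNA reads in siNT. Its form appeared in every knockdown culture, at 0.701% of RNA reads after siWDR82 and 0.916% after siZC3H4. sequence_04833 had 0, 0 and 1 spliced reads in siNT, 811, 136 and 116 after siWDR82 and 175, 89 and 348 after siZC3H4, or 7.97% and 5.08% of its RNA reads. sequence_16205 had its form after siZC3H4 and hardly any after siWDR82, a difference that edgeR did not call between the siRNAs. Its spliced reads were 0, 2 and 0 in siNT, 1, 1 and 0 after siWDR82, and 656, 484 and 557 after siZC3H4, where 7.49% of RNA reads were spliced. The siWDR82 libraries held 15944 RNA reads of this insert and siZC3H4 22659. The calls for sequence_04833 and sequence_16205 held in 2 of 11 alternatives each, and those for sequence_01816 in 6 of 11.

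The rarely spliced inserts with the most spliced reads showed no common direction. sequence_01753 had levels of 1.58, 1.88 and 1.48 in siNT, 1.71, 1.66 and 1.05 after siWDR82 and 0.95, 1.34 and 1.22 after siZC3H4. siZC3H4 lay below siNT and siWDR82 overlapped it. Its spliced share was 12.3% in siNT, 6.70% after siWDR82 and 15.9% after siZC3H4. sequence_16157 had levels of 0.88, 1.66 and 0.71 in siNT, 0.80, 1.41 and 0.76 after siWDR82 and 1.09, 1.81 and 1.03 after siZC3H4, all overlapping. Its spliced share was 14.7% in siNT and 22.0% and 21.4% in the knockdowns.

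The extremes of siNT level lay nearer the middle after knockdown. The highest, sequence_01260, had levels of 3.72, 3.18 and 2.22 in siNT, 0.70, 1.30 and 1.29 after siWDR82 and 1.14, 0.40 and 0.70 after siZC3H4. All knockdown cultures lay below siNT. Its spliced share went from 4.62% in siNT to 11.0% and 32.0%. The lowest, sequence_13710, had 3, 418 and 5 RNA reads in siNT against 290, 271 and 228 after siWDR82 and 287, 549 and 772 after siZC3H4. Its levels were -6.83, -3.72 and -8.24 in siNT, -3.73, -3.54 and -2.09 after siWDR82, and -2.08, -0.90 and -2.44 after siZC3H4. siZC3H4 lay above siNT throughout and siWDR82 overlapped it. Both inserts were named for their siNT values, so a move towards the middle is built into the choice.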

How the data were processed

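Separate RNA and gDNA tables of unnormalized read counts, deposited by the authors, were the input, with 1 column per library per the file headers. The submitters' processing notes list cutadapt 1.14, Bowtie2 2.3.4.3, SAMtools, STAR and build mm10. Their roles and how spliced forms were listed are not given in the sources used here. All columns were matched to samples by name. The gene position is from the RefSeq table for GRCm38.

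The members and lists were chosen with earlier results of these data known. RNA was the sum of unspliced and spliced reads of an insert, with spike-ins left out of totals. Calls came from the quasi-likelihood test of edgeR 4.0.16 in R 4.3.3 on counts, with 6 group means over 18 libraries, TMM within RNA and within gDNA, and Benjamini-Hochberg adjustment over 15364 inserts with means of at least 20 gDNA and 5 RNA reads. SEs were derived from the change and its F. Spliced over unspliced reads used edgeR with the library as a block. DESeq2 1.42.0 was an alternative. Named inserts were the lowest edgeR p-values among members whose cultures did not overlap (2 per direction and siRNA, 1 per direction between siRNAs), the 2 with most spliced reads, the extremes of siNT level and those nearest the share limit; the inserts called for spliced reads were added. As spliced forms carry no positions, none was named by length.

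In all 9 cultures the RNA library shared its deviation from the group mean with the gDNA library of that culture (r from 0.29 to 0.47, over inserts). This pairing comes from the labels, and the count with the culture as a block stands beside the main one. No replicates repeated the same library, as their chi-square over degrees of freedom was 33.1 or more. The 3 cultures of an siRNA are biological replicates per the series' design. Scripts were tested on simulated data.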

Additional observations from a re-analysis of the deposited data

How the results depend on the processing

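The level-matched difference kept its sign and moved by less than the SD between cultures in each alternative that could change it, which were 18 for siWDR82, 18 for siZC3H4 and 21 between the siRNAs. The replicate block leaves the value as it is by arithmetic, and so does leaving out a replicate of the siRNA not compared. The alternatives were a larger pseudocount, 10 or 40 bins, unspliced reads alone, number ranges, other minimums, a share limit of 10%, a new choice of members in the ranking culture, the mean over members, each replicate left out, and, chosen after seeing the data, ranking on the mean of 2 siNT cultures. Leaving out replicates gave -0.27 to -0.24 for siWDR82, -0.21 to -0.18 for siZC3H4 and 0.042 to 0.072 between them. With the mean over members siZC3H4 overlapped siNT, which stood at -0.22, 0.035 and 0.080. Same-numbered libraries correlated by 0.019 to 0.14 in RNA and -0.0041 to 0.20 in gDNA, not above 0.1 in every pair, so numbers were not taken as pairs, and the difference within each number as a replicate block was -0.25, -0.19 and 0.061.

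Counts of called members moved more. With siWDR82, where 3 were called, DESeq2 called 23, library totals 5, spike-in scaling 26, the culture as replicate block 41 and the replicate number as replicate block 1. Leaving out a replicate gave 0 to 7, with 0 without any one knockdown replicate and 5 to 7 without an siNT replicate. With siZC3H4, where 0 were called, DESeq2 called 1, library totals 1 and the culture block 2, and leaving out a replicate gave 0 to 5, with 3 to 5 without an siNT replicate. Between the siRNAs, where 0 were called, DESeq2 called 1 and leaving out a replicate gave 0. For spliced over unspliced reads, leaving out a replicate gave 0 to 3 members with siWDR82, 0 to 3 with siZC3H4 and 0 between them, and no replicate block gave 3 between them.

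The spliced percent of members differed from siNT by -0.017 percentage points with siWDR82, but by -0.35 with members chosen again in 1 siNT culture and 0.30 with a share limit of 10%. With siZC3H4 the difference of 0.33 became 0.043 with members chosen again and 0 for the median over members. Between the siRNAs 0.34 became 0 for the median and 0.11 with the share limit of 10%. Without single replicates the 3 ranged from -0.14 to 0.089, 0.25 to 0.39 and 0.24 to 0.47. The alternatives' causes were not tested.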
